A study of Phalaenopsis aphrodite with 54 samples.

Results

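Flowers of the *Phalaenopsis* hybrid V3 were compared with flowers of the species *Phalaenopsis aphrodite* on 4 arrays, 2 of V3 and 2 of *P. aphrodite*, out of 54 arrays in the whole series. These were the arrays whose labels give flower as the tissue and whose complementary DNA was labelled directly from total RNA, without amplification. V3 is a tetraploid commercial hybrid (Sogo Yukidian 'V3'), and *P. aphrodite* is a diploid wild species. Besides these flowers, 4 amplified arrays, 2 of V3 flowers and 2 of *P. aphrodite* flowers, served as a check of direction, and 9 unamplified arrays of leaves and roots of both genotypes were set beside them. The labels name no treatment and no pollination for these flowers, and give no plant age. Ploidy, hybrid origin, cultivation history and species differ together between the groups and cannot be told apart. The labels do not say whether 2 arrays of a group came from separate plants, so the p-values measure the spread between arrays, which may be technical. Every contig probe was made from *P. aphrodite* transcript contigs, so the hybrid was measured with probes of the other genotype.

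A moth orchid flower carries sepals, petals, a lip (a modified petal), a column that joins male and female parts, pollinia (packed pollen) and a pedicel with the ovary. The identity of these organs is set by MADS box transcription factors, which are grouped in classes A to E and act in combination. In model plants and orchids, class B factors (AP3 and PI clades) mark the perianth and column, class C and D factors (AG and STK clades) the column and ovary, and class E factors (SEP clade) are partners of the others throughout the flower. V3 is grown for large white flowers, and *P. aphrodite* also has white flowers.

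The 75th percentile of the background-corrected intensity lay between 576.6 and 613.9 on the V3 flower arrays and between 446.2 and 483.3 on the *P. aphrodite* flower arrays. Of the spots, between 75.5% and 78.6% were well above background on the 4 flower arrays, and 0 were saturated. The flower arrays were scanned on 1 day, and slide 3 held an array of each genotype. Within an array, repeat spots of a probe differ by a typical amount, and the 2 V3 arrays differed from each other by 1.29 times that amount when single spots at opposite positions were compared, and the 2 *P. aphrodite* arrays by 1.1 times. With means over repeat spots these ratios were 0.957 and 0.67. Each array was counted as 1 replicate. The flower label was checked on the class B gene PaAP3-4, which had 10.36 and 10.1 in V3 flowers and 10.57 and 10.6 in *P. aphrodite* flowers (log2 levels), against group means of 4.32, the floor, in leaves and roots of both. Probes for an orchid virus, ORSV, were among the brightest on both V3 flower arrays and at or near the floor on most others.

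Of 33877 contigs tested, 748 (2.21%) were higher and 1051 (3.1%) lower in V3 flowers than in *P. aphrodite* flowers (adjusted p under 0.05 and over 4-fold, a log2 difference over 2, by limma with Benjamini-Hochberg adjustment). All of them had no overlap between the arrays of the genotypes, which held for 72.5% of all contigs tested (40.8% higher and 31.7% lower in V3). At an adjusted p under 0.05 with no fold limit, 24.9% of the contigs were higher and 20.4% lower. The log2 difference over all contigs tested had a median of 0.1, with 5% of the contigs below -1.58 and 5% above 1.45. Among the called contigs, 17 were higher and 50 lower by more than 5 on the log2 scale, while 550 and 707 differed by 2 to 3. The calls were spread over all signal levels, with 2.6% higher and 3.46% lower among the dimmest 8470 contigs and 1.97% higher and 2.7% lower among the brightest 8469. For 97 of the higher contigs the probe was not well above background on either *P. aphrodite* array, and for 140 of the lower contigs on either V3 array, so these have only a bound. Within slide 3, all 748 and all 1051 kept their sign, which follows from the lack of overlap, and 91.2% and 91.9% were past 4-fold there. The arrays of slide 3 also went into the calls, so this is no independent check. With the arrays of a condition averaged to 1 replicate where their probe means differed no more than the spots of a probe, 1 residual degree of freedom was left and 0 contigs passed (smallest adjusted p = 0.28), while 694 were higher and 1001 lower at an unadjusted p under 0.05 and over 4-fold.

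The study names 45 contigs, for their organ patterns or as internal controls, and 44 of them have a probe. Of the 42 tested, 2 were higher and 4 lower in V3 flowers past 4-fold, 14 more were higher and 6 more lower at an adjusted p under 0.05, and 16 did not pass. Over all contigs tested, 2.21% were higher and 3.1% lower past 4-fold, and 24.9% higher and 20.4% lower at an adjusted p under 0.05 with no fold limit. These contigs were chosen by the study on arrays of this series and are not an independent sample of the flower's genes.

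Among the contigs that the study names, those named for petals or the lip held the largest differences. Of 10 tested, 3 fell past 4-fold, 2 more were lower and 2 higher at an adjusted p under 0.05, and their median difference was -0.53. Over all contigs tested, 3.1% were lower past 4-fold, 20.4% lower and 24.9% higher at an adjusted p under 0.05, and the median was 0.1. The study's petal and lip profiles came from *P. equestris*. On the amplified V3 organ arrays PATC134853 was highest in sepals, PATC139333 in the pedicel and PATC196836 in the column (8.13, with 4.32 in the lip). PATC138942 and PATC149447 were highest in pollinia (14.51 and 13.87), and the others in petals or the lip. PATC134853 encodes an acyltransferase, of a family of enzymes that attach acyl groups to alcohols, pigments or lipids. It had log2 levels of 6.51 and 6.48 in V3 flowers, against 11.63 and 11.57 in *P. aphrodite* flowers. The arrays of each genotype lay close together and the gap between the genotypes was wide. V3 was 34.5-fold lower (log2 difference -5.11, SE 0.18, adjusted p = 5.84e-09), and the second probe of this contig gave -5.17. PATC147735 encodes an anther-specific proline-rich protein, a kind of protein first described from the walls of anther cells. Its levels were 4.33 and 4.32 in V3 flowers, at the floor and not well above background, against 8.53 and 8.72 in *P. aphrodite* flowers. With this probe V3 was at least 19.6-fold lower (log2 difference -4.3, adjusted p = 2.49e-09). The second probe gave a smaller difference of -3.32. The first probe gave -3.68 on the amplified arrays, where V3 was well above background. The bound thus holds only for the first probe on the unamplified arrays. PATC149247, a zinc finger protein, showed the same arrangement. It had 4.62 and 4.32 in V3 flowers, not well above background, against 8.65 and 8.44 in *P. aphrodite* flowers. On these arrays V3 was at least 16.9-fold lower (log2 difference -4.08, adjusted p = 1.82e-08). The amplified arrays, with V3 well above background, gave a smaller difference of -3.44. PATC196836, another acyltransferase, had 7.12 and 7.37 in V3 flowers, against 9.44 and 9.04 in *P. aphrodite* flowers. It lay just short of the 4-fold limit at 3.99-fold lower in V3 (adjusted p = 8.34e-05).

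Other contigs of this list went the opposite way or differed little. PaMTN3, of the SWEET family of sugar transporters, had 13.49 and 12.7 in V3 flowers, against 11.31 and 11.61 in *P. aphrodite* flowers, 3.11-fold higher in V3 (SE 0.24 on the log2 scale, adjusted p = 2.53e-04). PATC156804 encodes phenylalanine ammonia-lyase, the enzyme of the entry step of the phenylpropanoid pathway that leads to lignin, flavonoids and pigments. It had 13.17 and 12.92 in V3 flowers, against 12.03 and 12.02 in *P. aphrodite* flowers, 2.03-fold higher in V3 (adjusted p = 0.00103). Of the tyrosine decarboxylases, which make tyramine from tyrosine, PATC138942 was 1.76-fold lower in V3 (adjusted p = 0.00209) and PATC149447 had overlapping arrays (difference -0.24, SE 0.19, adjusted p = 0.32).

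**Figure D1:**
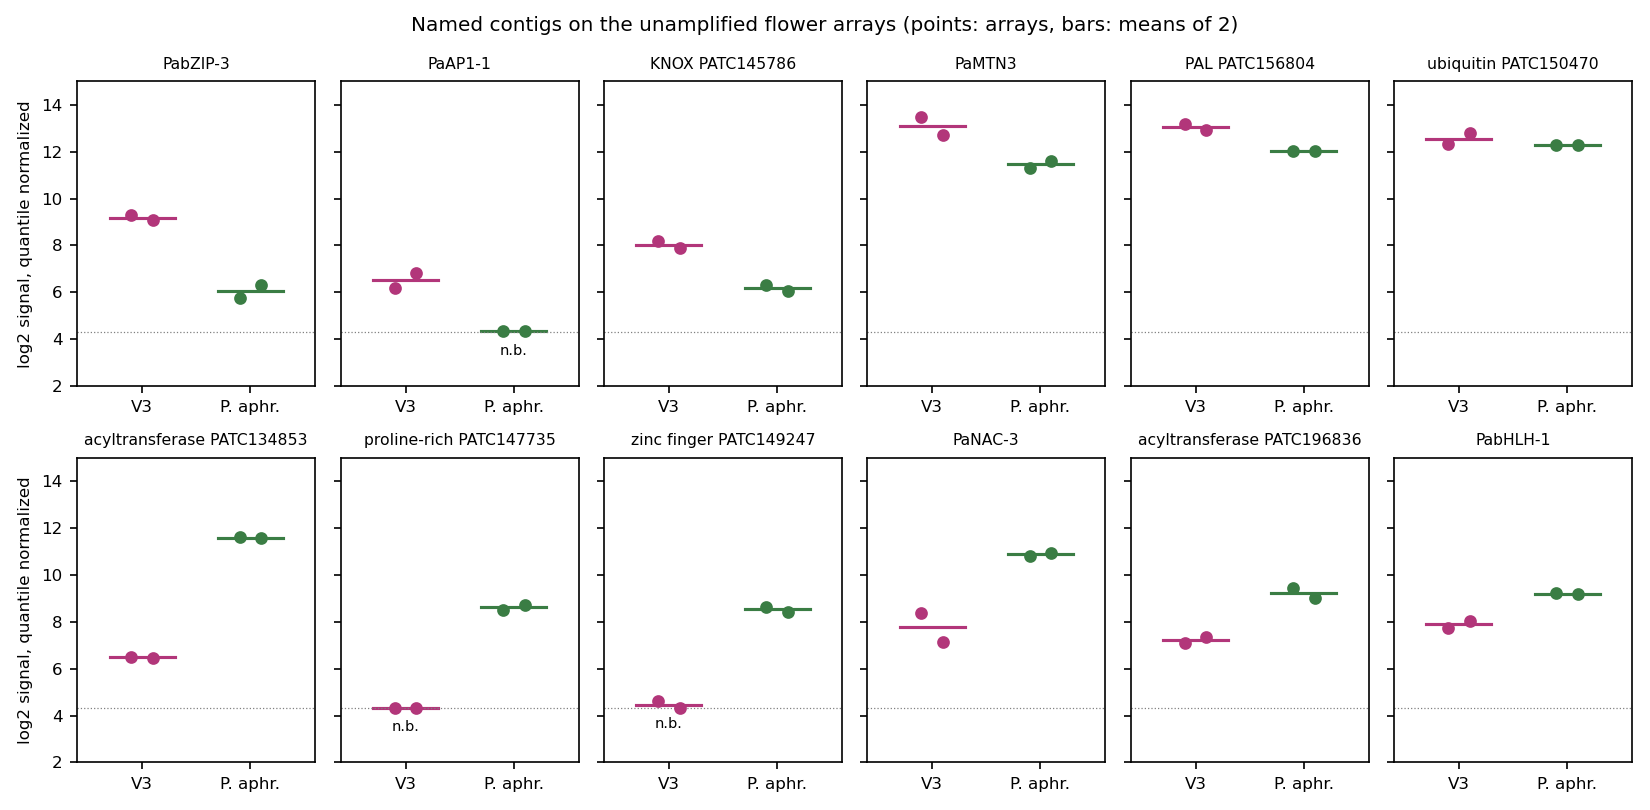
Log2 levels of 12 named contigs on the unamplified flower arrays of V3 (left in each panel) and *P. aphrodite* (right). Points are single arrays, bars the means of 2 arrays, the dotted line is the floor, and n.b. marks a genotype whose probe was not well above background on either array; PabZIP-3 and PaAP1-1 sit higher in V3, the lower row sits lower in V3, and ubiquitin lies between 12.28 and 12.78 on all 4 arrays.

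Transcription factors that the study describes as high across the floral organs except in pollinia split in direction. On the amplified V3 organ arrays PaAP2-5, PabZIP-3 and PaNAC-3 were lower in the column (9.9, 9.96 and 9.13) than in pollinia (10.68, 11.56 and 10.78). PabZIP-3, a basic leucine zipper factor, had 9.3 and 9.08 in V3 flowers, against 5.77 and 6.31 in *P. aphrodite* flowers, 8.88-fold higher in V3 (log2 difference 3.15, SE 0.22, adjusted p = 9.10e-07). PaNAC-3, of the NAC family of plant transcription factors, had 8.38 and 7.15 in V3 flowers, against 10.83 and 10.94 in *P. aphrodite* flowers. The V3 arrays of PaNAC-3 had an SD of 0.87, and both lay well under *P. aphrodite*, with V3 8.72-fold lower (adjusted p = 6.51e-05). PabHLH-1, a basic helix-loop-helix factor, was 2.5-fold lower in V3 (7.74 and 8.05, against 9.22 and 9.2 in *P. aphrodite*, adjusted p = 6.31e-04), and PaAP2-5, of the AP2 family, 1.95-fold higher (13.12 and 13.56, against 12.49 and 12.26, adjusted p = 0.01). PaMYB-4 differed by -0.08 (SE 0.12, adjusted p = 0.604). Without V3 flower replicate 2, PaAP2-5 no longer passed (0.75, adjusted p = 0.0842), nor without *P. aphrodite* flower replicate 2 (0.85, adjusted p = 0.0747).

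Among the MADS box contigs, 1 of 20 tested was past 4-fold, 9 were higher and 3 lower at an adjusted p under 0.05, and the median difference was 0.43. Over all contigs tested, 2.21% were higher past 4-fold, and 24.9% were higher and 20.4% lower at an adjusted p under 0.05. The exception past 4-fold was PaAP1-1, of the AP1 clade of class A, which in *Arabidopsis* sets floral meristem and outer organ identity. It had 6.19 and 6.82 in V3 flowers, against 4.33 and 4.33 in *P. aphrodite* flowers, where it was not well above background, at least 4.53-fold higher in V3 (adjusted p = 4.24e-05). On the amplified arrays PaAP1-1 was well above background in both genotypes, with 10.57 and 10.61 in V3 flowers, against 6.61 and 6.85 in *P. aphrodite* flowers. The 4-fold call was lost with 75th percentile scaling (1.73), with normexp correction (1.16) and with the mean over its probes (1.16), of which the second, at 0.14, was not well above background on any flower array. The other AP1 contig, PaAP1-2, differed by 0.32 (SE 0.17, adjusted p = 0.154). Of the AGL6 clade, PaAGL6-2, which is present in all organs, was 1.78-fold higher in V3 (9.33 and 9.27, against 8.42 and 8.51, adjusted p = 9.68e-04), and the lip gene PaAGL6-1 1.31-fold higher (10.9 and 11.08, against 10.57 and 10.63, adjusted p = 0.0288). The call of PaAGL6-1 was lost without V3 flower replicate 2 (adjusted p = 0.112) and without *P. aphrodite* flower replicate 1 or 2 (adjusted p = 0.102 and 0.0639).

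Of the class C and D contigs, all 6 were higher on both V3 arrays than on both *P. aphrodite* arrays, 5 of them at an adjusted p under 0.05 and 0 past 4-fold, with a median difference of 0.92. Over all contigs tested, 40.8% were higher with no overlap of arrays and 24.9% were higher at an adjusted p under 0.05. The class C genes act in the column and the class D gene PaAG-4 in the ovary. PaAG-2 had 11.85 and 12.18 in V3 flowers, against 11.13 and 10.99 in *P. aphrodite* flowers, 1.95-fold higher in V3 (SE 0.14, adjusted p = 2.72e-04). PaAG-3 had 10.53 and 10.81 in V3 flowers, against 9.74 and 9.62 in *P. aphrodite* flowers, 1.99-fold higher (adjusted p = 0.00961), and PaAG-1 was 1.84-fold higher (adjusted p = 0.0069). These are modest differences next to those of the acyltransferase and PaNAC-3. On the unamplified arrays PaAG-4 was well above background in V3 flowers only, with 5.91 and 5.8, against 4.33 and 4.33 in *P. aphrodite* flowers. It was at least 2.88-fold higher in V3 (adjusted p = 0.031). The amplified arrays had PaAG-4 well above background in both genotypes, with 10.36 and 10.52 in V3 flowers, against 8.26 and 8.24 in *P. aphrodite* flowers. Its call was lost with 75th percentile scaling (adjusted p = 0.128), with normexp background correction, with no filter, and without any single flower array, where adjusted p lay between 0.102 and 0.116. PATC119249, a short AG-like contig, had an adjusted p of 0.0571. PaAG-1 lost its call without V3 flower replicate 1 (adjusted p = 0.0563) and PaAG-3 without V3 flower replicate 2 (adjusted p = 0.0712) or *P. aphrodite* flower replicate 2 (adjusted p = 0.0632).

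Of 4 class B contigs tested, 0 were higher and 3 lower at an adjusted p under 0.05, against 24.9% and 20.4% of all contigs, with a median of -0.57. PaPI-1 had 13.09 and 12.49 in V3 flowers, against 13.67 and 13.61 in *P. aphrodite* flowers, 1.8-fold lower in V3 (SE 0.22, adjusted p = 0.00844), which was lost without V3 flower replicate 2 (-0.55, adjusted p = 0.0741) and with its dimmer probe (-0.29, adjusted p = 0.19). PaAP3-4, which on the amplified V3 organ arrays was brightest in petals, lip and column, was 1.28-fold lower (adjusted p = 0.0496), a call lost without V3 flower replicate 2 (adjusted p = 0.214) and without *P. aphrodite* flower replicate 1 or 2 (adjusted p = 0.108 and 0.14). For PaAP3-2 the probes disagreed. The brighter gave 7.38 and 7.5 in V3 flowers, against 8.21 and 8.24 in *P. aphrodite* flowers (difference -0.78, adjusted p = 0.0183), the dimmer gave 0.26, and the amplified arrays gave 0.38, so PaAP3-2 has no settled direction. Without any single flower array its adjusted p lay between 0.0523 and 0.0836. PaAP3-3 had overlapping arrays at 9.55 and 9.56 in V3 flowers, against 9.63 and 9.44 in *P. aphrodite* flowers.

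The class E contigs, which are partners of the other classes, differed little. PaSEP-1 and PaSEP-2 overlapped between the genotypes (differences 0.14 and -0.23, adjusted p = 0.558 and 0.472). PaSEP-3 was 1.5-fold higher in V3 (10.14 and 10.43, against 9.71 and 9.7, adjusted p = 0.0189), a call lost with 75th percentile scaling (adjusted p = 0.0842), without V3 flower replicate 2 (adjusted p = 0.106) and without *P. aphrodite* flower replicate 1 or 2 (adjusted p = 0.0743 and 0.0805). Of the other MADS box contigs, PaSOC1-3, of a clade that promotes flowering and is also present in vegetative tissue, had 9.39 and 9.34 in V3 flowers, against 9.1 and 8.67 in *P. aphrodite* flowers (adjusted p = 0.0636). PaMdP-1, of the M delta type, whose *Arabidopsis* members act in pollen, differed by 0.1 in flowers (adjusted p = 0.763), but V3 was higher by 2.76 in leaves (adjusted p = 1.01e-05) and by 2.18 in roots (adjusted p = 1.53e-04).

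**Figure D2:**
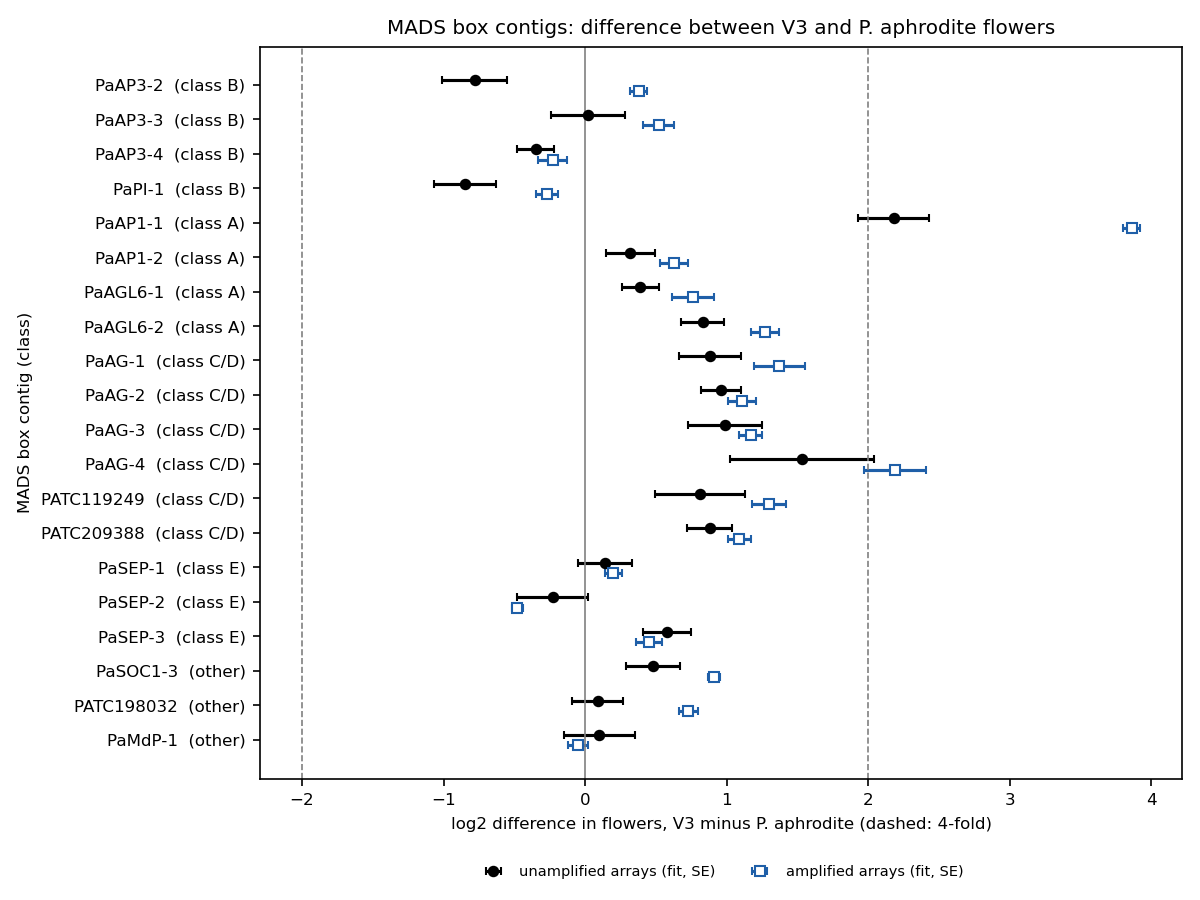
Log2 difference between V3 and *P. aphrodite* flowers for the 20 MADS box contigs tested, on unamplified arrays (filled circles) and amplified arrays (open squares), with standard errors of the fits; dashed lines mark 4-fold. PaAP1-1 lies past 4-fold on both, the class C and D contigs lie above 0 on both, and PaAP3-2 lies at -0.78 on unamplified and 0.38 on amplified arrays.

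Markers of pollinia, stalk and ordinary cell functions gave the following. Of the pollinia factors, PaAP2-7 and PaMdS-1 were at or near the floor on all 4 flower arrays (4.32 to 4.66) and were not tested. PabHLH-3 had 6.96 and 7.72 in V3 flowers, against 6.26 and 6.38 in *P. aphrodite* flowers, 2.03-fold higher in V3 (adjusted p = 0.0027), while PabZIP-2 and PaMYB-2 did not pass (adjusted p = 0.278 and 0.392). On the amplified arrays PaAP2-7 (-0.54), PabZIP-2 (-0.71), PaMYB-2 (-0.75) and PaMdS-1 (-1.95) were lower in V3, and PabHLH-3 was 0.26 higher. PaMdP-1, also highest in V3 pollinia (15.31), differed there by -0.05. Over all contigs at least 4-fold higher in V3 pollinia than in each other organ, the median difference on amplified arrays was -0.06, against 0.08 over all contigs tested. Both KNOX homeobox contigs, of a family that keeps meristems undifferentiated, were higher in V3 flowers. PATC145786 had 8.17 and 7.9 in V3 flowers, against 6.31 and 6.07 in *P. aphrodite* flowers, 3.6-fold higher in V3 (adjusted p = 1.74e-04). PATC127065 had 5.85 and 4.92 in V3 flowers, against 4.33 and 4.33 in *P. aphrodite* flowers, at least 2.08-fold higher in V3 (adjusted p = 0.00333). The amplified arrays had it well above background in both genotypes, with 10.41 and 10.4 in V3 flowers, against 7.93 and 7.95 in *P. aphrodite* flowers. On the amplified V3 organ arrays both KNOX contigs were highest in the pedicel, at 14.48 and 12.46. The internal controls differed little, with ubiquitin at 0.26 (SE 0.18, adjusted p = 0.265) and actin at -0.44 (SE 0.17, adjusted p = 0.0506).

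The largest differences were in contigs for which no gene name was given, and only the leading ones are named. PATC034731 had 13.6 and 13.09 in V3 flowers, against 4.33 and 4.33 in *P. aphrodite* flowers, where it was not well above background, at least 518-fold higher in V3 (adjusted p = 1.63e-10). It was at or close to the floor in leaves and roots of both genotypes (4.32 to 4.43 as group means). PATC141647 was well above background on all 4 arrays, with 13.71 and 12.73 in V3 flowers, against 7.11 and 6.94 in *P. aphrodite* flowers, 73.4-fold higher in V3 (adjusted p = 4.05e-07). In leaves and roots it was lower in V3, by -2.61 (adjusted p = 3.67e-04) and -1.85 (adjusted p = 0.00715). PATC148767 had 5.46 and 4.64 in V3 flowers, against 12.4 and 12.45 in *P. aphrodite* flowers, 166-fold lower in V3 (adjusted p = 1.68e-09), and its second probe gave -6.13. PATC141813 had 4.33 and 4.32 in V3 flowers, not well above background, against 10.03 and 9.89 in *P. aphrodite* flowers, at least 49.8-fold lower in V3 (adjusted p = 9.30e-10). Unlike the others it was as low in V3 leaves and roots, with differences of -5.54 and -5.84, and its second probe gave -5.45. The 10 leading contigs of each direction that were well above background on all 4 arrays differed by 4.89 to 6.2 and by -7.38 to -6.2. Those of the 10 leading contigs whose second probe could be read, 4 of the higher and 6 of the lower, had the same sign with it.

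All probes derive from *P. aphrodite*, so both probes of a contig were compared. Of the higher contigs, 381 had a second probe well above background on at least 1 flower array, and it had the same sign for 354 (92.9%) and was past 4-fold for 214 (56.2%). Of the lower contigs, 609 had such a probe, with the same sign for 568 (93.3%) and past 4-fold for 394 (64.7%). Over all contigs tested, 72.5% of the second probes had the same sign. The median difference was 2.56 with the first and 2.19 with the second probe for the higher contigs, and -2.68 and -2.49 for the lower ones. Differences in sequence between the genotypes under both probes were not tested.

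The amplified arrays gave the same direction for most contigs. Of 30899 contigs tested there, 1278 (4.14%) were higher and 1425 (4.61%) lower in V3 flowers. Of the contigs called on the unamplified arrays and tested on the amplified ones, 596 of 629 higher (94.8%) and 841 of 936 lower (89.9%) had the same sign, against 73.4% of all contigs tested on both. Past the threshold in the same direction were 447 (71.1%) and 592 (63.2%), and in the opposite direction 3 and 11. The median difference was 2.52 on amplified and 2.59 on unamplified arrays for the higher contigs, and -2.5 and -2.64 for the lower ones. Across 28709 contigs the differences correlated with r of 0.67, a description over contigs, which are not independent and are measured with the same probes. All 6 named contigs past 4-fold had the same sign on the amplified arrays, with PabZIP-3 at 1.21, PaAP1-1 at 3.86, PATC134853 at -5.43, PATC147735 at -3.68, PATC149247 at -3.44 and PaNAC-3 at -2.29. Both amplified V3 flower arrays lay on 1 slide and the *P. aphrodite* arrays on others scanned on another day, so on amplified arrays batch and genotype cannot be told apart. The files do not say whether amplified and unamplified arrays shared plants or RNA.

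In leaves and roots of the same genotypes fewer contigs differed. In leaves 270 (0.797%) were higher and 240 (0.708%) lower in V3, and in roots 251 (0.741%) and 237 (0.7%). Of the contigs higher in V3 flowers, 56 (7.49%) were also higher in V3 leaves and 53 (7.09%) in V3 roots. Over all contigs tested these shares were 0.797% and 0.741%. Called in neither were 661 (88.4%), where few contigs of any kind were called in leaves or roots. Of the lower contigs, 61 (5.8%) and 71 (6.76%) were also lower in leaves and roots, against 0.708% and 0.7% of all, and 959 (91.2%) were called in neither. For leaves and roots too, contigs entered the test by their signal on the flower arrays. The difference itself was tested as the genotype difference in flowers minus the mean of those in leaves and roots, by which 783 contigs (2.31%) were higher and 1062 (3.13%) lower. This contrast shares the flower arrays with the flower comparison.

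Named contigs differed in this respect. PATC134853 had group means of 6.2 in V3 leaves and 5.82 in *P. aphrodite* leaves, and of 11.03 in V3 roots and 10.57 in *P. aphrodite* roots, so the genotype difference of the acyltransferase in flowers differed from that in the other tissues (contrast -5.52, adjusted p = 2.16e-08). PATC147735 and PATC149247 were bright in leaves of both genotypes (8.84 and 8.91 in V3, against 8.8 and 9.06 in *P. aphrodite*) and at the floor in roots, and differed in flowers by a contrast of -4.31 and -4 (adjusted p = 1.55e-08 and 1.59e-07). PabZIP-3 was also higher in V3 leaves, by 2.79 (adjusted p = 3.68e-06), and its difference in roots was 0.58 (adjusted p = 0.0917). The contrast of PabZIP-3 was 1.46 (adjusted p = 0.00151), and against leaves alone it was 0.36 (adjusted p = 0.384). The phenylalanine ammonia-lyase contig was higher in V3 flowers but lower in V3 leaves, by -0.74 (adjusted p = 0.00847), with a contrast of 1.64 (adjusted p = 1.98e-04). PATC196836 was lower in V3 flowers but higher in V3 leaves by 1.05 (adjusted p = 0.00681) and in V3 roots by 1.43 (adjusted p = 0.00243), with a contrast of -3.23 (adjusted p = 1.33e-05).

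**Figure D3:**
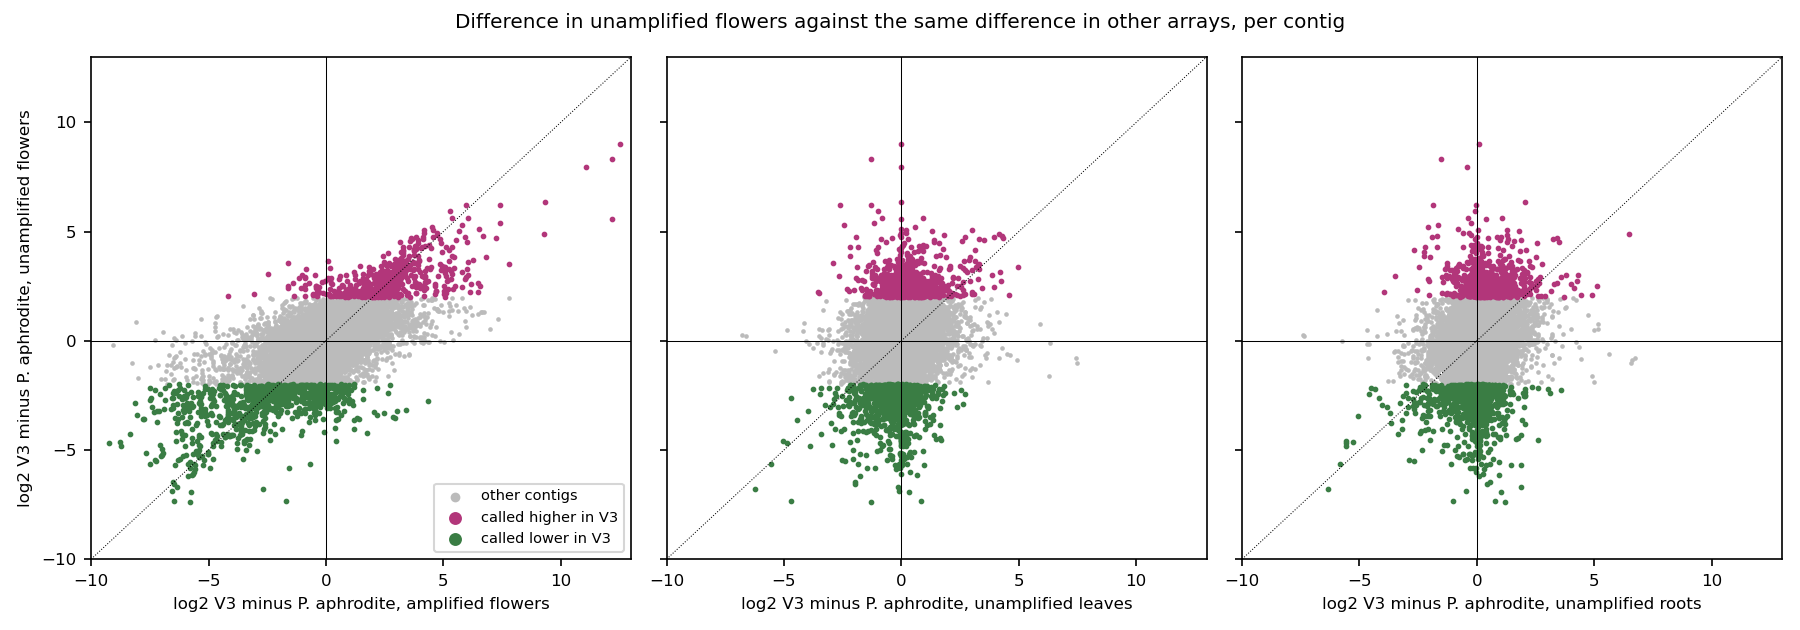
Log2 difference between V3 and *P. aphrodite* in unamplified flowers (y axis) against the same difference in amplified flowers (left), unamplified leaves (middle) and unamplified roots (right), with 1 point per contig. Coloured points are the contigs called higher or lower in V3 flowers and the dotted line marks equal differences; the medians of the called contigs tested on both are 2.52 and -2.5 in amplified flowers, 0.23 and -0.31 in leaves and 0.41 and 0 in roots.

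Whole flowers mix organs and stages, so contigs that mark an organ or a stage on amplified arrays were followed in the unamplified flowers. With bulk tissue, fewer cells of a type and less RNA per cell cannot be told apart. Organ lists hold contigs at least 4-fold higher in 1 of 6 V3 organs than in each other organ. Of 20 sepal contigs tested, 7 (35%) were higher and 2 (10%) lower in V3 flowers, against 2.21% and 3.1% of all contigs, and their median difference was 1.65. Of 73 lip contigs, 9 (12.3%) were higher and 2 (2.74%) lower, with a median of 0.58. Of 13 petal contigs, 0 were called in either direction, and 3 were higher and 0 lower at an adjusted p under 0.05. The share of higher contigs thus lay above the background in the sepal and lip lists and was 0 in the petal list, which is small. The pollinia list, of 3502 contigs, had 2.77% higher and 3.14% lower, close to the background. Column and pedicel contigs had more calls than the background in both directions, with 5.45% and 5.18% higher and 7.27% and 6.22% lower.

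Stage and tissue lists departed from the background in opposite directions, which followed the genotype whose amplified flowers each list was chosen against. A list chosen for low levels in flowers of one genotype by itself favours calls higher in the other. The directions therefore cannot be read as a result about stage or tissue. Contigs at least 4-fold higher in *P. aphrodite* leaves than in *P. aphrodite* flowers were higher in V3 flowers for 203 of 2390 (8.49%) and lower for 16 (0.669%), with a median of 0.58. Their array medians were 8.06 and 8.09 in V3 flowers, against 7.46 and 7.54 in *P. aphrodite* flowers, and their median difference between the genotypes in leaves was -0.15. This list was chosen for low levels in amplified *P. aphrodite* flowers, and amplified V3 flowers were not used for it. Contigs higher in *P. aphrodite* buds than flowers, a list likewise chosen for low levels in amplified *P. aphrodite* flowers, were called higher in 6.02% and lower in 2.67% of 1795. Contigs raised in V3 flowers 1 day after pollination were lower in V3 flowers than in *P. aphrodite* flowers for 183 of 1505 (12.2%), and higher in 1.79%. Contigs higher in V3 large buds than in V3 flowers were called lower in 228 of 2453 (9.29%) and higher in 1.39%. The pollination and large-bud lists were both chosen for low levels in amplified V3 flowers and share 837 contigs, which are 45% of the pollination list and 25.2% of the large-bud list. No list has a test here, and the part of flower age or organ proportions in the calls was not tested.

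**Figure D4:**
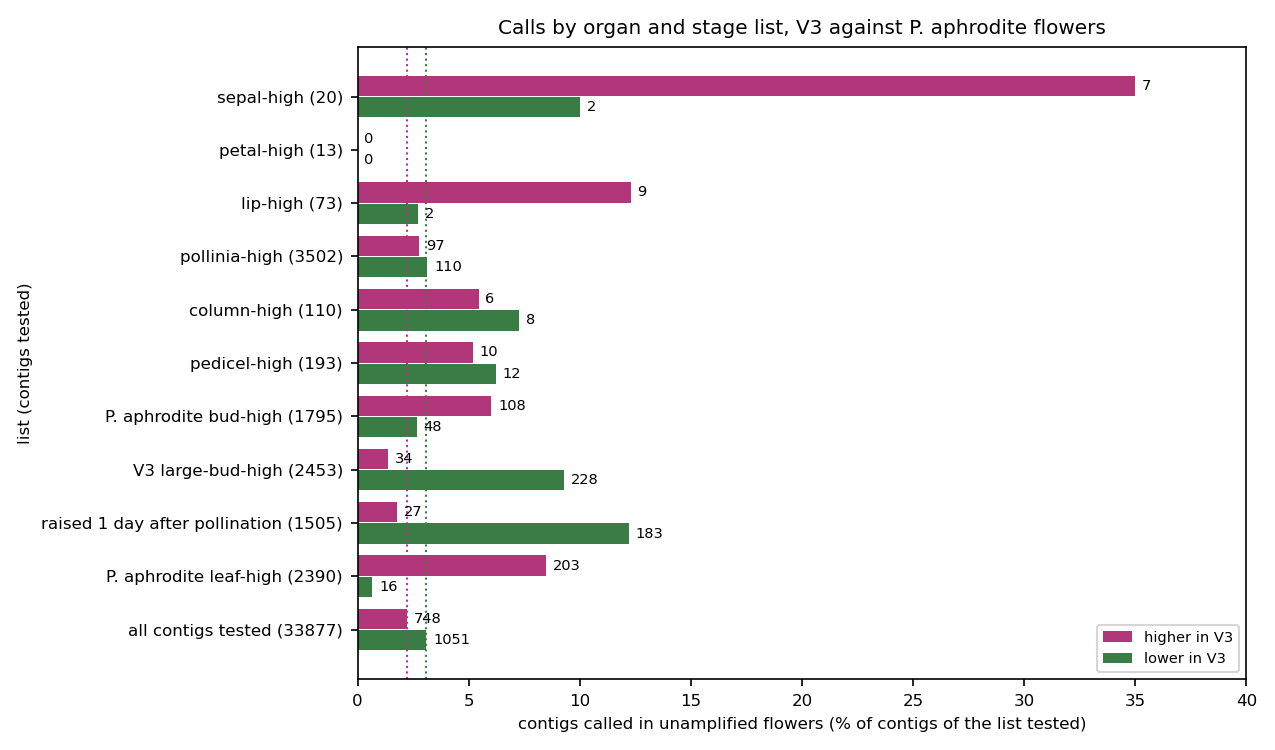
Share of the contigs of each organ or stage list that were called higher (upper bar) or lower (lower bar) in V3 than in *P. aphrodite* flowers on unamplified arrays, with the number of contigs at the bar and the number tested beside the name. Dotted lines mark the shares over all 33877 contigs. The sepal, lip, leaf, *P. aphrodite* bud, column and pedicel lists reach past the line for higher contigs. The sepal, large-bud, pollination, column and pedicel lists reach past the line for lower contigs, and the pollinia list lies close to both lines. The leaf and *P. aphrodite* bud lists were chosen for low levels in amplified *P. aphrodite* flowers. The large-bud and pollination lists were chosen for low levels in amplified V3 flowers, and each choice by itself favours the direction seen.

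The levels of the called contigs in V3 organs were set beside those in whole flowers, all on amplified arrays. For 314 of 629 higher contigs (49.9%) the mean of the amplified V3 flowers lay above that of every one of the 6 V3 organs, against 18.7% of all contigs tested on both. For 262 of 936 lower contigs (28%) it lay below that of every organ, against 16.9% of all. In amplified *P. aphrodite* flowers 47.5% of the lower contigs lay above every V3 organ, against 17.1% of all. The called contigs were chosen by the difference between whole flowers of the genotypes, which by itself favours such shares, and no test was made. Among the petal or lip contigs, the levels of PATC147735 and PATC149247 were 15.4 and 14.65 in V3 sepals and 15.58 and 15.02 in V3 petals, 4.83 or less in V3 column and pollinia, between 8.33 and 8.54 and between 7.43 and 7.47 on the arrays of whole V3 flowers, and between 12.11 and 12.12 and between 10.85 and 10.92 on those of *P. aphrodite* flowers. PATC134853 had 13.33 in V3 sepals and 13.15 in V3 petals, against 8.56 and 8.51 in whole V3 flowers and 13.97 and 13.96 in *P. aphrodite* flowers. For these contigs the whole V3 flowers thus measured lower than V3 sepals and petals of the same series. The amplified V3 flowers were scanned on a day with no V3 organ array, so here tissue and batch cannot be told apart.

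Probes for viruses stood apart between the groups. The array carries 4 probes each for Odontoglossum ringspot virus (ORSV) and Cymbidium mosaic virus (CymMV), which are widespread in cultivated orchids. The ORSV probes had levels between 10.78 and 15.26 on the V3 flower arrays, well above background in 8 of 8 readings. On the *P. aphrodite* flower arrays 1 of 8 readings was well above background, at 6.86, and the others were at the floor. Probe 2 read 15.01 and 15.26 in V3 flowers, brighter than 99.6% and 99.7% of all probes, against 4.33 and 4.33 in *P. aphrodite* flowers, at least 1790-fold higher in V3. Probes 1 and 4 were at least 1190-fold and 96.7-fold higher. On the amplified V3 flower arrays the ORSV probes read between 7.02 and 8.9, against 4.32 on the amplified *P. aphrodite* flower arrays. On unamplified arrays of leaves and roots they did not exceed 5, and probe 3 was well above background on both V3 root arrays (4.88 and 5). On the 24 other amplified V3 arrays, of organs, buds and pollinated flowers, 2 of 96 readings were well above background, with a maximum of 5.19, and on the 13 other amplified *P. aphrodite* arrays 6 of 52, with a maximum of 7.18. CymMV probe 4 read 8.74 and 8.96 in V3 flowers, against 5.39 and 4.62 in *P. aphrodite* flowers. In amplified flowers it read 9.23 and 9.25 in V3, against 4.32 in *P. aphrodite*. V3 flowers 1 day after pollination had 8.45 and 8.48. Its brightest readings were in young inflorescences of *P. aphrodite*, at 18.68 and 18.63, so CymMV signal was not particular to V3. Bright ORSV signal was thus measured on the unamplified arrays of whole V3 flowers and not on those of V3 leaves and roots. On amplified arrays whole V3 flowers were well above background in 8 of 8 ORSV readings, though under the median of 11.28 over all contigs. The other amplified V3 arrays read lower than these flowers, but were scanned on other days. Whether that material lacked ORSV was not tested. The part of ORSV in the differences between V3 and *P. aphrodite* flowers was not tested.

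**Figure D5:**
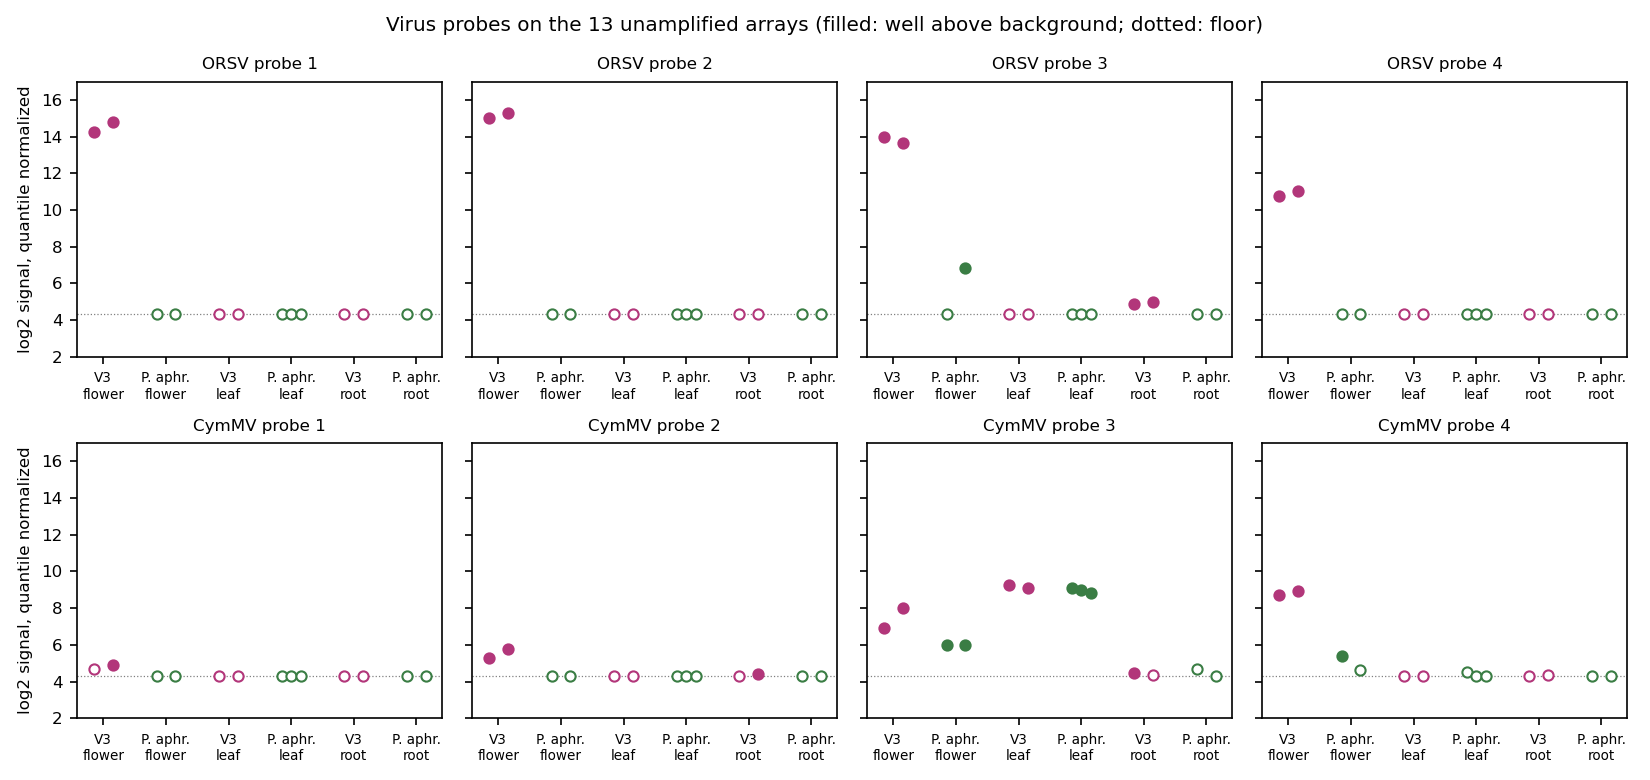
Log2 level of the 8 virus probes on the 13 unamplified arrays by genotype and tissue, with V3 left of *P. aphrodite*. Filled points are well above background, and the dotted line is the floor; the ORSV probes are bright on both V3 flower arrays only, while CymMV probe 3 read between 8.83 and 9.29 in leaves of both genotypes.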

How the data were processed

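Each of the 54 arrays was hybridized with 1 sample carrying a Cy3-type dye, 41 of them after RNA amplification. The authors deposited spot intensity values that the scanner software (Feature Extraction 10.7.1.1) had corrected for background, and a table of log2 values. The deposited log2 table was found to be these intensities, raised to at least 20 and logged, less a constant near each array's 75th percentile, although the methods name quantile normalization. Its scale, centring and direction are thus known. Spot flags (above background, saturated, outlier) were deposited with each array and served as filters.

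Here intensities were raised to a floor of 20, logged (base 2), averaged over repeat spots without outliers, and quantile normalized among the 13 unamplified arrays and separately among the 41 amplified arrays. Each contig was represented by its brighter probe, and entered the test if at least 0.5 of the probe's spots were well above background on both arrays of at least 1 flower group. The model had a coefficient for each genotype and tissue over all 13 arrays (7 residual degrees of freedom), and was fitted with limma (version 3.58.1, R version 4.3.3), with Benjamini-Hochberg adjustment over all contigs tested. For a probe not well above background in a genotype, the fold is a bound against the higher of its own signal and the lowest signal well above background on that array. The fits were tested on simulated data with known changes. Precision is limited by the small number of arrays.

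Named are every contig that the study names and that has a probe, and leading contigs by size of the difference, by bound, and by the contrast with leaves and roots, of which only 2 per direction are printed. Contig names follow the study, and lists by annotation keyword could not be used. The members and lists were chosen with earlier results of these data known. Alternatives were 75th percentile scaling, normexp correction (offset 50, computed from median rather than mean spot signals), a floor of 5, other filters and probes, a fit of the flower arrays alone, slide blocks, merged arrays, the deposited table, and leaving out each flower array.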

Additional observations from a re-analysis of the deposited data

Results flagged for a closer look

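In these results, the genotype difference in flowers differed from that in leaves and roots by a test of the difference itself (limma contrast, adjusted p under 0.05 and over 4-fold). It was past the threshold for 783 contigs above and 1062 below, with 9 unamplified arrays of leaves and roots beside 4 of flowers. The contrast was 2.24 for PaAP1-1 (adjusted p = 2.03e-04) and -3.44 for PaNAC-3 (adjusted p = 1.86e-04). Both were at or near the floor in leaves and roots, with group means of 4.32 to 5.31 and of 4.41 to 5.53. Their contrasts thus largely restate the flower difference. That of PaAP1-1 was under 4-fold with 75th percentile scaling (1.95), normexp correction (1.15), the mean of its probes (0.81) and without V3 flower replicate 2 (1.92). PaMdP-1 had a contrast of -2.37 (adjusted p = 1.43e-04), since it differed between the genotypes in leaves and roots and hardly in flowers. Among contigs named for petals or the lip the contrast was -5.52 for PATC134853, -4.31 for PATC147735, -4 for PATC149247 and -3.23 for PATC196836. Among contigs with no gene name it was 8.96 for PATC034731, 8.43 for PATC141647 and -7.32 for PATC148767. PATC034731 too was at or close to the floor in leaves and roots, so its contrast restates the flower difference. PATC141813 is an exception, with 0.05 (adjusted p = 0.839), as it was low in all V3 tissues.

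Signal outside the main measurement came from the virus probes, which read higher on both V3 flower arrays than on any *P. aphrodite* flower array and any unamplified leaf or root array. The mean log2 level on the unamplified V3 flower arrays was 14.54, 15.13, 13.81 and 10.92 for ORSV probes 1 to 4, and 4.80, 5.54 and 8.85 for CymMV probes 1, 2 and 4. CymMV probe 3 was not among them, because it was higher in leaves of both genotypes. CymMV probe 1 was well above background on 1 of the V3 arrays.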

How the results depend on the processing

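No paired analysis was possible because the array titles carry no replicate numbers. Slides, of which 1 holds a flower array of each genotype, were fitted as a block instead, with 763 and 1049 contigs called higher and lower as a random block, and 783 and 1063 as a fixed block, which was chosen after the data were seen and leaves 3 residual degrees of freedom. The count of contigs higher and lower in V3 flowers (748 and 1051) was 348 and 563 with normexp correction, whose offset compresses differences, and 402 and 544 when a raw signal of at least 500 was required, which left 14449 contigs tested. With the dimmer probe, for 19832 contigs, 401 were higher. With merged arrays 0 were called in either direction. Normexp correction gave 101 and 91 in leaves, 79 and 99 in roots, and 377 and 558 for the contrast of flowers with leaves and roots. Without single flower arrays the flower counts lay between 763 and 825 and between 1024 and 1163, those of the contrast between 764 and 862 and between 1067 and 1163, and those on amplified arrays between 1277 and 1300 and between 1424 and 1439. The other settings changed no count by more than 1.5 times, among them the fit of 4 flower arrays alone (669 and 949) and slide blocks. Scan day could not be fitted apart from tissue. Of 26 named contigs past an adjusted p of 0.05, 0 passed with merged arrays, and between 18 and 23 without a single flower array. With the dimmer probe PaAP3-2 reversed to 0.26. PaAP1-1 was under 4-fold with 75th percentile scaling (1.73), the flower arrays alone (1.91), the mean of its probes (1.16), normexp correction (1.16) and without V3 flower replicate 2 (1.86), and the cause was not tested. The 2 arrays per group limit every count.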

Other observations

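The contigs chosen for their difference between unamplified flowers were followed over the amplified conditions, as medians over the 629 higher and 936 lower contigs tested there. The higher contigs had a median log2 level of 11.7 in V3 flowers, above every other amplified condition, the next being young inflorescences of *P. aphrodite* at 10.74. In V3 flowers 1, 3, 8 and 15 days after pollination they stood at 10.48, 10.55, 10.71 and 10.41, in V3 small and large buds at 9.98 and 9.95, and in *P. aphrodite* flowers and buds at 9.22 and 9.22. The lower contigs had their lowest median, 8.98, in V3 flowers, and stood at 10.05, 9.88, 9.91 and 10.26 on the days after pollination. They were highest in *P. aphrodite* flowers (11.64), stalks (11.61) and buds (10.9). Over all contigs the medians lay between 11.21 and 11.31 in every amplified condition. On both sides the V3 flowers with no pollination in their label thus lay beyond the buds, organs and pollinated flowers of the same hybrid. The contigs were chosen for high or low levels in V3 flowers against *P. aphrodite* flowers, which by itself favours such a place. Both amplified V3 flower arrays also lay on 1 slide, scanned on a day with no other V3 array. Their place therefore cannot be told apart from slide and scan day. This is a description of these arrays with no test.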
